A study of Homo sapiens with 12 samples.

Results

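The probes described here measured chromatin-modifying enzymes and methyl-CpG-binding domain proteins on 12 Illumina HumanRef-8 V2 bead arrays. The cells were MDA-MB-231, an established breast cancer line that lacks hormone receptors and HER2 amplification. They were taken by gene name alone, whatever their values. The names were those that start with HDAC, SIRT, SETD, SMYD, PRMT, DNMT, MBD, JMJD, KDM, JARID1, SUV39H or SUV420H, those of MLL with or without a digit, and UTX, UTY, EHMT1, EHMT2, DOT1L, EP300, CREBBP and PCAF. This rule took 104 of 22184 probes, for 77 of 18216 gene names. Cells had received an siRNA against EZH2 (siEZH2), RelA (siRelA), RelB (siRelB) or a negative control siRNA (siNC), and each siRNA was combined with TNFalpha at 10 ng/ml for 4 h (TNF) or with no TNF (CTRL). There were 3 arrays of siEZH2 CTRL and 3 of siNC CTRL, and 1 array in each of 6 further groups. Every group thus carried an siRNA, and none was untransfected. The labels name neither the siRNA sequences nor separate cultures for the replicates, so the spread behind each p-value is that between arrays and may be technical.

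Histone acetyltransferases such as EP300 and CREBBP place acetyl groups that accompany active genes, and the zinc-dependent HDAC enzymes and the NAD-dependent sirtuins remove them. Lysine and arginine methyltransferases write methyl marks on histones and on other proteins, and most Jumonji-domain proteins erase lysine methylation. DNA methyltransferases methylate cytosine in CpG dinucleotides, and some proteins with a methyl-CpG-binding domain (MBD) bind methylated CpG and recruit deacetylases. EZH2 is the catalytic subunit of Polycomb repressive complex 2 and writes a repressive methyl mark on histone H3, which UTX removes. RelA and RelB are NF-kB transcription factor subunits, and TNFalpha is a cytokine that activates NF-kB.

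Between 12337 and 12908 probes were detected per array (detection p under 0.05), and 67 to 76 of the 104 probes were among them. All values below are normalized log2 intensities or differences of them, and the level of a probe is compared only with the same probe on other arrays. The number of arrays limits the precision. Both replicate 2 arrays had a higher background than the others (median signal of undetected probes 99.7 with siEZH2 and 101.5 with siNC, and at most 80.1 elsewhere), and the siNC TNF array was read from 23.59 beads per probe on average, against 40.79 to 43.12 on the rest. Arrays with the same replicate number deviated together, with correlations of 0.762, 0.84 and 0.648 across all tested probes. Replicates 1 and 3 also deviated together between the groups (0.427 and 0.414), and replicate 2 was opposed to both (-0.592 to -0.772). Deviations were taken from the mean of each group, so those of a probe sum to 0 within a group. Where replicate 2 stands apart, replicates 1 and 3 must lie on the other side, so these correlations are not independent of each other. A fit with the replicate number as a block is given where it changes a call. The EZH2 probe 2230189 averaged 6.12 ± 0.57 in siEZH2 CTRL and 8.90 ± 0.52 in siNC CTRL (SD, n = 3 each; limma adjusted p = 0.00626, and 0.0564 in the authors' processed values). RELA was lower with siRelA (limma adjusted p = 0.00193, and 0.0656 and 0.0515 without either siRelA array), and RELB was lower with siRelB (limma adjusted p = 0.000712, and 0.0518 without siRelB CTRL and 0.0663 in the authors' processed values) and also with siRelA (-2.17 ± 0.227, limma adjusted p = 0.0014). In the authors' values with their processing set as a term, this EZH2 probe with siEZH2 and RELB with siRelB passed. The 5 markers of this line, VIM, CD44, AXL, CAV1 and MSN, were detected on all 12 arrays. Of 8 luminal markers, ERBB2, EPCAM and KRT19 were detected on all 12, GATA3 on 9 and CDH1 on 7, and ESR1, PGR and FOXA1 on none. Of 4 blood cell markers, CD14 and CORO1A were detected on 5 arrays, PTPRC on 4 and CD3D on none. With siEZH2 against siNC, CAV1 (-0.73, limma adjusted p = 0.043), EPCAM (-1.41, limma adjusted p = 0.0133) and CORO1A (-0.89, limma adjusted p = 0.0359) were lower. CD14 was higher (1.26, limma adjusted p = 0.0226). The CORO1A mean with siEZH2 (4.72) and the CD14 mean with siNC (5.09) lay below the dimmest detected probe of each array (5.12 or higher). The changes of CORO1A and CD14 are therefore given as a description. The part of these markers in the results was not tested. Bulk RNA does not separate fewer cells of a kind from less RNA per cell.

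Of the 104 probes, 59 were detected on all 12 arrays. A further 15 were detected on some arrays and on at least 3, which made 74 tested probes for 64 genes out of 13884 tested probes in all. Another 8 probes were detected on 1 or 2 arrays and were not tested, and 22 were detected on no array. The 13 genes without a tested probe were DNMT3L, EHMT1, HDAC11, JMJD2C, JMJD5, MBD3L1, MBD3L2, MLL2, PRMT8, SIRT3, SMYD1 and 2 Y-linked genes. DNMT3L, a regulatory partner of the de novo DNA methyltransferases in germ cells, and SMYD1, a methyltransferase of muscle, were among them. JMJD3 and SETD7 were not analysed here. Names follow the array's design: PCAF is KAT2B, JARID1B is KDM5B, JMJD1A is KDM3A, UTX is KDM6A, and MLL is KMT2A.

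The promoters of the genes whose probes moved are shown to give the sequence upstream of all 8 of them. RefSeq (GRCh38.p14) gave a promoter for 70 of the 77 names. Each line holds the 250 bases before the annotated start, read 5′ to 3′ on the gene's strand, and capitals mark a match on either strand to the GC box GGGCGG, the CCAAT box CCAAT, the E-box CACGTG, the NRF1 core TGCGCA, the cell-cycle elements CHR TTTGAA and E2F TTTCCCGC or TTTGGCGC, or the kappaB motif of NF-kB. PRMT1 and PRMT2 (arginine methyltransferases, on chromosomes 19 and 21), HDAC2 and HDAC6 (deacetylases, on chromosomes 6 and X) and SETD4 (a SET-domain protein, on chromosome 21) had a probe that was lower with siEZH2, SETD3 (an actin histidine methyltransferase, on chromosome 14) and SIRT4 (a mitochondrial sirtuin, on chromosome 12) had a probe that was higher with it, and KDM5B (a histone demethylase, on chromosome 1, listed as JARID1B on the array) had a probe that was lower with siRelA.
PRMT1: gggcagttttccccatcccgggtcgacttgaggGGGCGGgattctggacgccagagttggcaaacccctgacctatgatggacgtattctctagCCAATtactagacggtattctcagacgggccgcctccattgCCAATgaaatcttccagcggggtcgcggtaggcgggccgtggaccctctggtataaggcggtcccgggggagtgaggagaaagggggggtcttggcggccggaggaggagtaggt
PRMT2: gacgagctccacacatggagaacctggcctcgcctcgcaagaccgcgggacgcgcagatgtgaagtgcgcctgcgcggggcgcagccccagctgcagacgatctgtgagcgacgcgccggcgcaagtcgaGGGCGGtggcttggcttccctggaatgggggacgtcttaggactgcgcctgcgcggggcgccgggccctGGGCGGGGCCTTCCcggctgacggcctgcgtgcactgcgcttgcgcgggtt
HDAC2: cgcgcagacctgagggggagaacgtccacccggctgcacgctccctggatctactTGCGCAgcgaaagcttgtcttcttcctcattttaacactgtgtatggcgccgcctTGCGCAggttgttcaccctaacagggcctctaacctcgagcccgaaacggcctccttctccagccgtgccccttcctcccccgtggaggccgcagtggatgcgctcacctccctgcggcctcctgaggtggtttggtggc
HDAC6: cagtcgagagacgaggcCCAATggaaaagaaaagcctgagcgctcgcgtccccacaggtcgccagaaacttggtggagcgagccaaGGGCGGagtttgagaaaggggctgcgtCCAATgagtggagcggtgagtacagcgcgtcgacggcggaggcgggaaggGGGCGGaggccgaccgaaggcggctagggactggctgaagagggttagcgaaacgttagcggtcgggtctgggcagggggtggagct
SETD4: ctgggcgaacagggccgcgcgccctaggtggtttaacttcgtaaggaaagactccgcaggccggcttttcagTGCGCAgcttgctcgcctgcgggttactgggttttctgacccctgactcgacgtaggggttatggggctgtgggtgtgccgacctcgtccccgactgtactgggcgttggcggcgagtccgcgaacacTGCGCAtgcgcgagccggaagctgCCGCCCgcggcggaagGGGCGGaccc
SETD3: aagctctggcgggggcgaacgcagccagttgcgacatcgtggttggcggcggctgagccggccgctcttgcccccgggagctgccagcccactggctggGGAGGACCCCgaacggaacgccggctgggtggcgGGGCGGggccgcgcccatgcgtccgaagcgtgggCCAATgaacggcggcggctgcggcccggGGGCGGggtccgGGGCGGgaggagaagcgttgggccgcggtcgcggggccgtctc
SIRT4: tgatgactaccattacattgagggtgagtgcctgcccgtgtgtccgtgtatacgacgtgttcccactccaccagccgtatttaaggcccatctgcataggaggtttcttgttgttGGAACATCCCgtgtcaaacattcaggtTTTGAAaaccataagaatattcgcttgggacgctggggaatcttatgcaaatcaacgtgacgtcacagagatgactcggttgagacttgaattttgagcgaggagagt
KDM5B: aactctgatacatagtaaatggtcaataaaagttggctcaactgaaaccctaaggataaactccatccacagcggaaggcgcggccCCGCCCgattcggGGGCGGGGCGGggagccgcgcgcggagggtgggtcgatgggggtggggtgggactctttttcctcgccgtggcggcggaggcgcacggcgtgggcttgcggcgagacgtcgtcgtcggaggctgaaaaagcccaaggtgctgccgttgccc
In the PRMT2 line a GC box and a kappaB match overlap and form 1 run of capitals, and in the KDM5B line neighbouring GC boxes do.

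The PRMT1 line is chr19:49677021-49677270 on the plus strand and holds 17 CpG. The PRMT2 line is chr21:46635424-46635673 on the plus strand with 32 CpG, the HDAC2 line is chr6:113971149-113971398 on the minus strand with 18 CpG, and the HDAC6 line is chrX:48801817-48802066 on the plus strand with 24 CpG. SETD4 lies at chr21:36060527-36060776 on the minus strand with 29 CpG, SETD3 at chr14:99480860-99481109 on the minus strand with 35 CpG, SIRT4 at chr12:120291939-120292188 on the plus strand with 12 CpG, and KDM5B at chr1:202808422-202808671 on the minus strand with 27 CpG. Over the 70 promoters the median was 23 CpG, against 11 over all 35114 promoters of the table, so SIRT4 was CpG-poor among its own set and near the median of all promoters. GC boxes occurred in 60% of the 70 promoters, against 42.6% of all promoters. CCAAT occurred in 34.3% of them, against 32% of all. The kappaB motif was found in 12.9% of the 70 promoters, against 9.96% of all. The NRF1 core, which holds a CpG, was found in 21.4% of them, HDAC2 and SETD4 among these, against 6.89% of all, and the E-box in 14.3%, against 6.35%. This form of the NRF1 motif was the last of 3 counted, each chosen with the count of the one before known; both longer forms were in smaller shares of the 70 and of all promoters, and their values are not given here. The CHR element was found in 5.71%, against 13.3% of all, and the E2F elements TTTCCCGC and TTTGGCGC in 1.43% and 0%, against 1.39% and 0.55%. No kappaB match lies in the KDM5B window. These are counts of letters in a window and do not show binding.

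Cells with siEZH2 were compared with siNC cells without TNF, 3 arrays against 3. In limma, 7 of the 74 tested probes passed an adjusted p of 0.05 (9.46%), against 13.5% of all 13884 tested probes. PRMT1, PRMT2, HDAC2, HDAC6 and SETD4 were lower and SIRT4 and SETD3 were higher. The 2 higher probes made up 2.7% of the 74, against 7.11% of all tested probes, and the 5 lower ones 6.76%, against 6.35%. The share that passed was thus no larger than over all probes. The median change over the 74 probes was -0.05, with 32 above 0 and 42 below, and the median over all tested probes was -0.01. All 7 probes moved in the same direction in each of the 3 replicate pairs and between the siEZH2 TNF and siNC TNF arrays. Their siEZH2 CTRL and siNC CTRL arrays did not overlap, so the shared direction in the 3 pairs follows from the values that were tested. It is no separate check. The TNF arrays shared only the normalization and the detection filter with that test. The dimmest detected probe was at 5.21 on the siEZH2 TNF array and at 5.22 on the siNC TNF array. The SETD3 probe lay below it on both (5.10 and 4.73), so its direction there is no check. The SETD4 probe lay below it with siEZH2 (5.19). How often passing probes among all tested probes kept their direction on the TNF arrays was not counted.

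**Figure D1:**
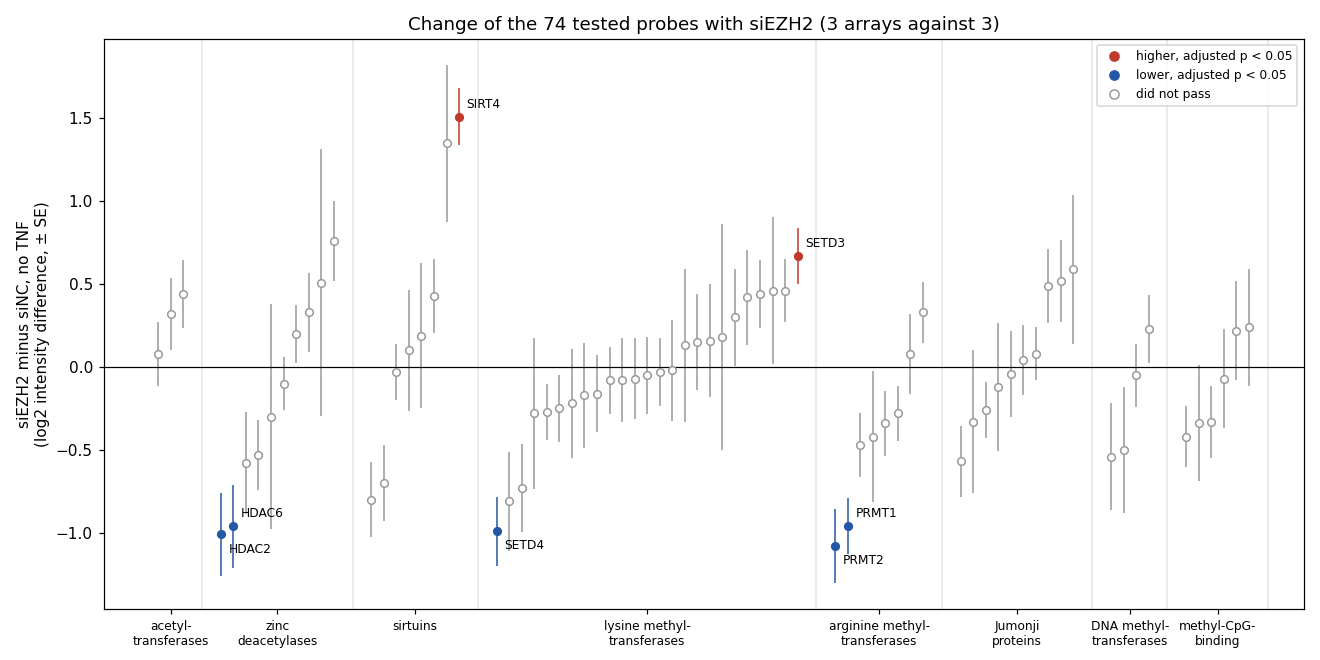
Log2 intensity difference of siEZH2 CTRL minus siNC CTRL for each of the 74 tested probes, grouped by role, with the limma standard error. Filled points passed the adjusted threshold: 2 were higher (red) and 5 lower (blue), and the open points did not pass.

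With the replicate number as a block, 29 of the 74 probes passed (39.2%), against 41.7% of all tested probes. Of these 12 were higher, against 20.9% of all, and 17 lower, against 20.8%. The siEZH2 and siNC arrays did not overlap for 24 of the 74 probes (32.4%), against 31.9% of all tested probes. Of these 8 were higher, against 16.2% of all, and 16 lower, against 15.7%. Without both replicate 2 arrays 14 probes passed (18.9%), against 28.6% of all. Of the 74 probes, 52 kept 1 direction over the 3 replicate pairs (70.3%), against 65.2% of all tested probes, and 49 kept it on the TNF arrays too (66.2%), against 59.5%.

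Arginine methyltransferases transfer methyl groups to arginine in histones and RNA-binding proteins. Of 8 tested probes, 2 were lower with siEZH2 and 6 did not pass, and the median change was -0.38 (range -1.08 to 0.33). In the blocked fit 4 were lower and 0 higher, against 20.8% and 20.9% of all tested probes.

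PRMT1 makes most of the asymmetric dimethylarginine of the cell. Its probe 5910139 read 12.09, 11.90 and 11.87 in siEZH2 CTRL and 13.03, 12.88 and 12.83 in siNC CTRL. All siEZH2 arrays lay below all siNC arrays, and the replicates of each group were close together. The change was -0.96 ± 0.171, 1.94-fold lower (limma adjusted p = 0.0139). The TNF arrays read 11.84 with siEZH2 and 13.02 with siNC. The call was lost when siNC CTRL replicate 1, siNC CTRL replicate 3 or siEZH2 CTRL replicate 3 was left out (limma adjusted p = 0.0674, 0.0657 and 0.0687), and in the authors' processed values (-0.98, limma adjusted p = 0.0686). In those values with their processing set as a term, the probe passed.

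PRMT2, a related enzyme with an SH3 domain, had a probe (3840066) at 7.50, 8.07 and 7.60 in siEZH2 CTRL and 8.81, 9.01 and 8.59 in siNC CTRL. The groups did not overlap. It was 2.11-fold lower (-1.08 ± 0.224, limma adjusted p = 0.0229). On the TNF arrays it was 7.64 with siEZH2 and 8.63 with siNC, and on the siRelA and siRelB arrays it stayed between 8.76 and 8.91, within the siNC range. Without siNC CTRL replicate 1 or 3 the adjusted p was 0.0801 and 0.068, and without siEZH2 CTRL replicate 1 or 3 it was 0.0924 and 0.0967. The authors' processed values gave -0.90 (limma adjusted p = 0.0775), and with their processing set as a term this probe passed. PRMT6 (-0.47, limma adjusted p = 0.173) and PRMT3 (-0.42, limma adjusted p = 0.606) passed only with the block (adjusted p = 0.0188 and 0.0333). PRMT5, which makes symmetric dimethylarginine, changed by -0.28 ± 0.166 (limma adjusted p = 0.35).

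The zinc deacetylases had 10 tested probes, of which 2 were lower with siEZH2, with a median change of -0.20 (range -1.01 to 0.76). The blocked fit called 2 higher and 4 lower, against 20.9% and 20.8% of all tested probes. HDAC2, a catalytic subunit of the Sin3, NuRD and CoREST corepressors, read 11.39, 11.02 and 11.73 in siEZH2 CTRL and 12.42, 12.09 and 12.65 in siNC CTRL. Its siEZH2 arrays all lay below the siNC arrays, and in both groups replicate 2 was the lowest and replicate 3 the highest. It was 2.01-fold lower (-1.01 ± 0.251, limma adjusted p = 0.0413), and the replicate pairs differed by -1.03, -1.07 and -0.92. The TNF arrays read 11.84 with siEZH2 and 12.68 with siNC. Leaving out siNC CTRL replicate 1 or 3 gave an adjusted p of 0.122 and 0.161, and leaving out siEZH2 CTRL replicate 1, 2 or 3 gave 0.125, 0.0952 and 0.0663. The adjusted p was 0.0821 with 75th percentile scaling and 0.0532 with no detection filter. HDAC1, the close paralog that sits in the same complexes, changed by -0.10 ± 0.161 (limma adjusted p = 0.8) and HDAC3, the deacetylase of the NCoR complex, by 0.33 ± 0.240 (limma adjusted p = 0.463). The difference between HDAC2 and its paralogs was not tested.

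HDAC6, a mainly cytoplasmic deacetylase of tubulin, read 6.22, 6.03 and 5.51 in siEZH2 CTRL and 7.14, 6.60 and 6.90 in siNC CTRL. The lowest siNC array stood above the highest siEZH2 array. It was 1.95-fold lower (-0.96 ± 0.251, limma adjusted p = 0.0478). The change was -0.52 without background correction (limma adjusted p = 0.0551) and -0.51 in the authors' processed values (limma adjusted p = 0.121, and 0.0828 with their processing set as a term). The call was also lost without siNC CTRL replicate 1 or 3 (limma adjusted p = 0.153 and 0.157) and without siEZH2 CTRL replicate 1, 2 or 3 (0.0797, 0.0836 and 0.15), with 75th percentile scaling (0.0594) and with no detection filter (0.0626). HDAC4, a class II enzyme that shuttles between nucleus and cytoplasm, changed by -0.53 ± 0.213 (limma adjusted p = 0.163, and 0.0134 with the block). HDAC8 changed by -0.58 ± 0.308 (limma adjusted p = 0.292, and 0.00904 with the block).

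HDAC5, another class II enzyme, read 5.77, 5.66 and 5.87 in siEZH2 CTRL and 4.79, 5.48 and 4.73 in siNC CTRL. It was detected on 5 arrays, of which 3 were siEZH2 CTRL arrays and 1 was an siNC CTRL array, so it entered the tests mainly through the siEZH2 arrays. The difference of 0.76 ± 0.242 did not pass (limma adjusted p = 0.0864, and 0.015 with the block), and is given as a description.

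Sirtuins need NAD and act in nucleus, cytoplasm and mitochondria. Of 8 tested probes 1 was higher with siEZH2, with a median of 0.15 and the widest range of any role, -0.80 to 1.51. SIRT4, a mitochondrial member, read 7.76, 7.53 and 7.69 in siEZH2 CTRL and 6.02, 6.16 and 6.25 in siNC CTRL. The gap between the groups was several times the spread within either. It was 2.85-fold higher (1.51 ± 0.172, limma adjusted p = 0.00488). The TNF arrays repeated the gap, with 7.60 for siEZH2 and 6.29 for siNC, and the siRelA and siRelB arrays read 5.96 to 6.17. This call held whichever single siEZH2 CTRL or siNC CTRL array was left out (limma adjusted p at most 0.0336). Leaving out an array of another group could not change it, since each of those groups had a mean of its own.

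**Figure D2:**
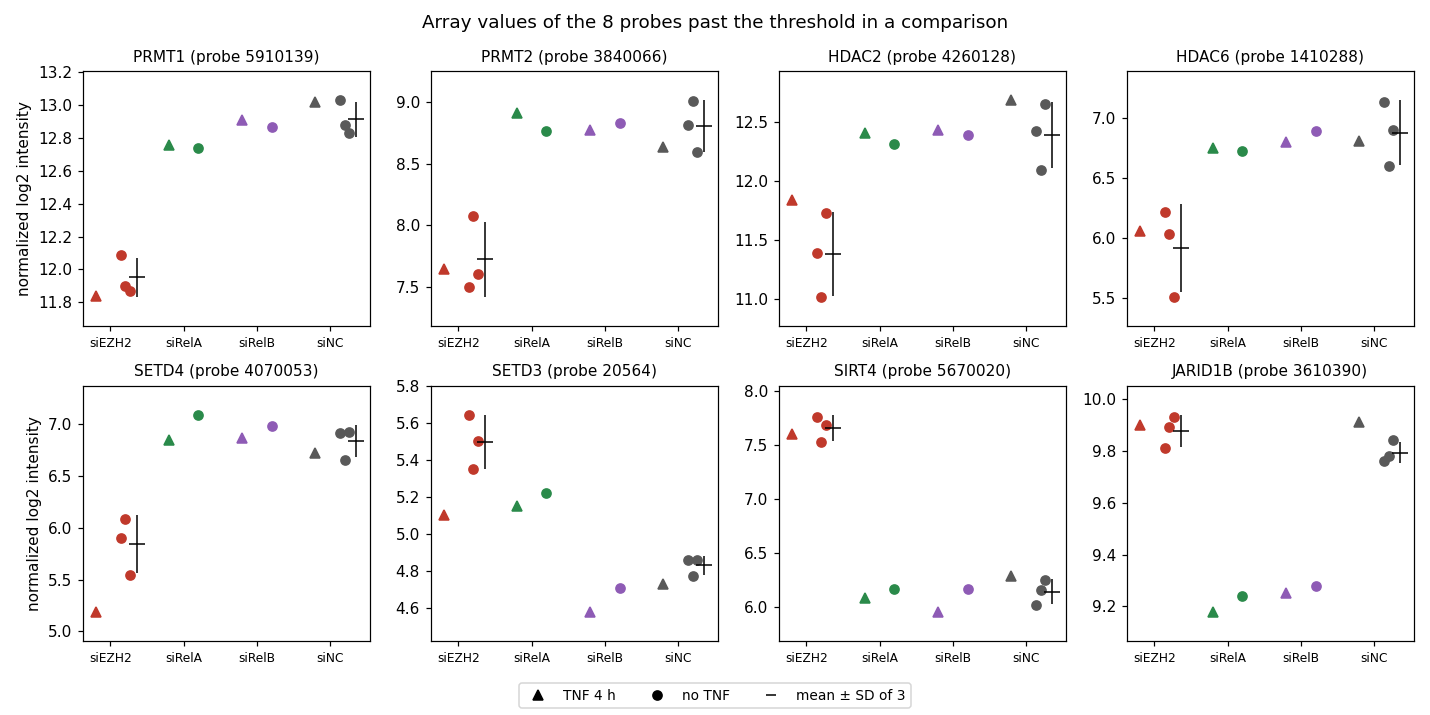
Normalized log2 intensity on all 12 arrays of the 8 probes that passed in the siEZH2 or siRelA comparison, by siRNA (siEZH2, siRelA, siRelB, siNC), with triangles for TNF arrays, circles for arrays without TNF, and bars for the mean ± SD of 3 CTRL arrays. For PRMT1, PRMT2, HDAC2, HDAC6 and SETD4 the siEZH2 arrays sit below all others, for SIRT4 above all others, and for JARID1B the siRelA and siRelB arrays sit near 9.2 against 9.76 to 9.93 elsewhere.

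SIRT2, which deacetylates tubulin and histone H4, showed the second largest difference. It read 8.96, 7.92 and 9.04 in siEZH2 CTRL and 7.91, 6.35 and 7.61 in siNC CTRL. The groups only just separated, since replicate 2 was low in both, yet within replicates siEZH2 was higher by 1.06, 1.57 and 1.43. The TNF arrays differed by 1.73 (9.20 with siEZH2, 7.48 with siNC). The difference of 1.35 ± 0.474 did not pass (limma adjusted p = 0.116), whereas it passed with the block (adjusted p = 0.000349) and without both replicate 2 arrays (1.24, limma adjusted p = 0.0048). SIRT1, the nuclear sirtuin that deacetylates p53 and RelA, changed by -0.03 ± 0.169 (limma adjusted p = 0.959).

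SIRT5, a mitochondrial desuccinylase, had 3 tested probes. Probe 2100743 read 5.35, 5.70 and 5.01 in siEZH2 CTRL and 6.12, 6.32 and 6.01 in siNC CTRL, and probe 1260500 read 8.53, 7.84 and 8.04 in siEZH2 CTRL and 8.96, 8.68 and 8.86 in siNC CTRL. On both the siEZH2 arrays lay below the siNC arrays. The changes of -0.80 and -0.70 did not pass (limma adjusted p = 0.0629 and 0.0933) and passed with the block (0.00209 and 0.00465). Without the siEZH2 CTRL replicate 2 array probe 2100743 changed by -0.97 and passed (limma adjusted p = 0.0458). The third probe, 4730133, was detected on 5 arrays and changed by 0.19 (limma adjusted p = 0.867). SIRT6, a nuclear enzyme of chromatin and DNA repair, was detected on 7 arrays and changed by 0.43 ± 0.225 (limma adjusted p = 0.292, and 0.0224 with the block). These arrays included 3 of siEZH2 CTRL and 1 of siNC CTRL. The blocked call thus rests partly on siNC values that were not detected and is given as a description.

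**Figure D3:**
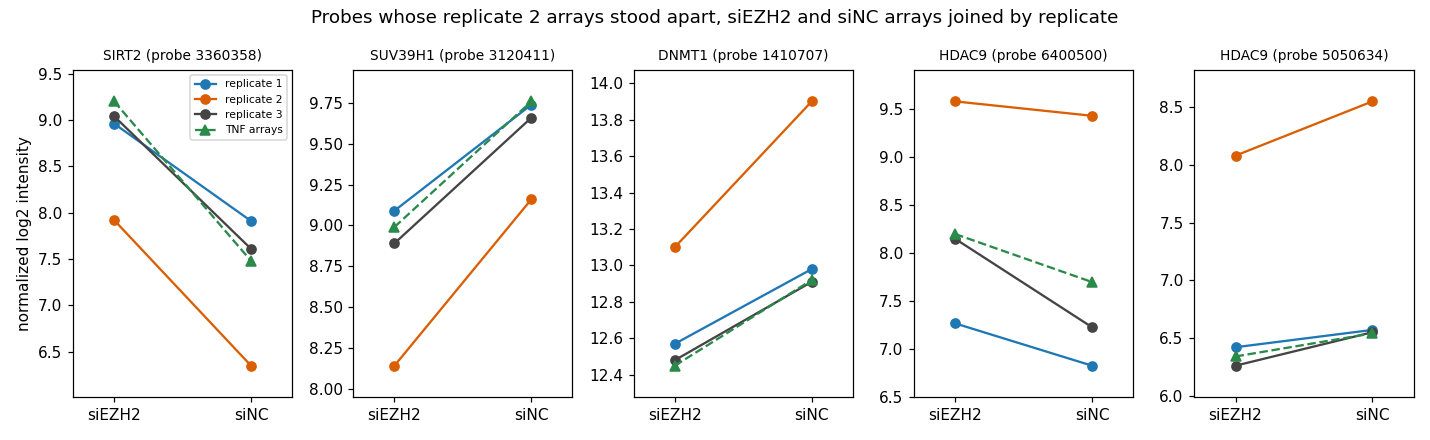
Normalized log2 intensity with siEZH2 and siNC for 5 probes, chosen after their values were seen because their replicate 2 arrays stood apart, with lines joining arrays of the same replicate number and a dashed line for the TNF arrays. For SIRT2, SUV39H1 and DNMT1 the lines of a probe run in the same direction. The replicate 2 line is displaced and is the steepest of the replicate lines (-0.80 for DNMT1, against -0.41 and -0.42). SIRT2 is higher with siEZH2 by 1.06 to 1.73 in each of the 4 lines.

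Lysine methyltransferases were the largest role, with 25 tested probes of which 1 was higher and 1 lower with siEZH2. Their median change was -0.05 (range -0.99 to 0.67). The higher probe was that of SETD3, which is placed in this role by its name and whose call is given below as a description. The blocked fit called 4 higher and 3 lower, against 20.9% and 20.8% of all tested probes. SETD4 read 5.90, 6.09 and 5.54 in siEZH2 CTRL and 6.92, 6.66 and 6.93 in siNC CTRL, with no overlap. It was 1.99-fold lower (-0.99 ± 0.208, limma adjusted p = 0.0238), and 5.19 with siEZH2 against 6.72 with siNC on the TNF arrays. The probe was not detected on the siEZH2 TNF array. The authors' processed values gave -0.52 (limma adjusted p = 0.0996, and 0.0594 with their processing set as a term). Without siNC CTRL replicate 1 or 3 the adjusted p was 0.0899 and 0.109, and without siEZH2 CTRL replicate 1 or 3 it was 0.0802 and 0.0893.

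SETD3 is a SET-domain protein that methylates a histidine of actin. Its probe 20564 read 5.64, 5.35 and 5.50 in siEZH2 CTRL, where it was detected on all 3 arrays, and 4.86, 4.77 and 4.86 in siNC CTRL, where it was detected on none. The limma difference of 0.67 ± 0.171 (limma adjusted p = 0.0448) rests on siNC values that were not detected. Set against the dimmest detected probe of every siNC array, the probe was at least 1.24-fold higher, a bound without a test. It was detected on 4 arrays in all and passed the filter of 3 arrays through the siEZH2 arrays, where it is high, so its call is given as a description. It also passed with no detection filter. The other 6 probes that passed were detected on all 3 arrays of both groups. The other SETD3 probes changed by 0.46 (2570035, limma adjusted p = 0.619) and -0.07 (990437, limma adjusted p = 0.915). The call was lost without siNC CTRL replicate 1, 2 or 3 (adjusted p = 0.132, 0.0636 and 0.161) and without siEZH2 CTRL replicate 1, 2 or 3 (0.161, 0.0638 and 0.142). It was also lost with no background correction (0.27, limma adjusted p = 0.124), with 75th percentile scaling (limma adjusted p = 0.0867) and in the authors' processed values (0.38, limma adjusted p = 0.168, and 0.108 with their processing set as a term).

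SUV39H1, which methylates histone H3 in heterochromatin, read 9.09, 8.14 and 8.89 in siEZH2 CTRL and 9.74, 9.16 and 9.66 in siNC CTRL. The siEZH2 arrays were lower in every pair, and the groups nearly touched because replicate 2 was low in both. Its change of -0.81 ± 0.298 did not pass (limma adjusted p = 0.13) but did with the block (0.00188). SETDB2, a related SET-domain enzyme, changed by -0.73 ± 0.265 (limma adjusted p = 0.126, and 0.00286 with the block). SUV39H2, the paralog of SUV39H1, changed by -0.05 ± 0.232 (limma adjusted p = 0.947). SMYD3 changed by 0.46 ± 0.189 (limma adjusted p = 0.172, and 0.015 with the block), and SUV420H2, which methylates histone H4, by 0.44 ± 0.203 (limma adjusted p = 0.218, and 0.0227 with the block). Changes of DOT1L (-0.25), EHMT2 (0.16), SETDB1 (-0.16) and MLL (-0.08) did not pass with or without the block (limma adjusted p 0.27 to 0.882). MLL3 has near-identical copies in the genome and its probes (0.18 and -0.22) are uncertain.

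Of the 10 tested Jumonji probes none passed with siEZH2, against 13.5% of all probes. Their median change was 0.00 (range -0.57 to 0.59). The blocked fit called 2 higher and 1 lower, against 20.9% and 20.8% of all tested probes. UTX, which removes the mark written by EZH2, changed by 0.04 ± 0.211 (limma adjusted p = 0.956). JMJD1A, a demethylase of histone H3 that hypoxia induces, read 9.11, 8.87 and 9.40 in siEZH2 CTRL and 8.63, 8.25 and 8.96 in siNC CTRL. The groups overlapped, since siNC replicate 3 exceeded siEZH2 replicate 2, but siEZH2 was higher in each pair. The difference of 0.52 ± 0.247 passed only with the block (adjusted p = 0.00934, against 0.24 in limma without it). JARID1A, of the same family as JARID1B, changed by 0.49 ± 0.225 (limma adjusted p = 0.222, and 0.0203 with the block). The largest change was that of JMJD2B, a demethylase of histone H3, at 0.59 ± 0.450 (limma adjusted p = 0.494).

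Among the 3 acetyltransferases, all 3 changes were above 0 and none passed with siEZH2. PCAF read 9.51, 10.06 and 9.69 in siEZH2 CTRL and 9.22, 9.46 and 9.27 in siNC CTRL, without overlap. Its difference of 0.44 ± 0.205 did not pass (limma adjusted p = 0.23, and 0.0226 with the block). EP300 changed by 0.32 ± 0.215 (limma adjusted p = 0.426) and CREBBP by 0.08 ± 0.194 (limma adjusted p = 0.875).

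Of 4 DNA methyltransferase probes none passed, with a median of -0.28. DNMT1, the maintenance enzyme that copies methylation at replication, read 12.57, 13.10 and 12.48 in siEZH2 CTRL and 12.98, 13.90 and 12.91 in siNC CTRL. Replicate 2 was the highest in both groups, so the groups overlapped, while each siEZH2 array lay below its siNC partner. The change was -0.54 ± 0.320 (limma adjusted p = 0.353, and 0.0128 with the block). The de novo enzymes DNMT3A and DNMT3B changed by 0.23 ± 0.203 and -0.05 ± 0.189 (limma adjusted p = 0.574 and 0.923). DNMT2, which methylates transfer RNA, changed by -0.50 ± 0.378 (limma adjusted p = 0.491, and 0.0106 with the block). It was detected on 1 siEZH2 CTRL array and on 3 siNC CTRL arrays. Its blocked call thus rests partly on siEZH2 values that were not detected and is given as a description.

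Of the 6 probes of methyl-CpG-binding domain proteins none passed. The median was -0.20, and the largest change was that of MBD4, a DNA repair glycosylase, at -0.42 ± 0.183 (limma adjusted p = 0.192, and 0.0312 with the block). MBD2, which ties methylated DNA to the NuRD deacetylase complex, changed by -0.07 ± 0.299 (limma adjusted p = 0.941).

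For 8 genes more than 1 probe was tested, and not all probes of a gene moved alike. PRMT1 had a second probe, 2350110, at 5.88, 5.98 and 6.34 in siEZH2 CTRL and 6.27, 6.55 and 6.40 in siNC CTRL. These groups overlapped and the change of -0.34 ± 0.198 did not pass (limma adjusted p = 0.344). The second PRMT2 probe, 7560072, read 8.19, 8.38 and 8.73 in siEZH2 CTRL and 8.10, 8.23 and 8.73 in siNC CTRL, a change of 0.08 ± 0.243 (limma adjusted p = 0.911). The PRMT2 call thus rests on 1 of its 2 probes. Which transcripts each probe reads was not tested.

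**Figure D4:**
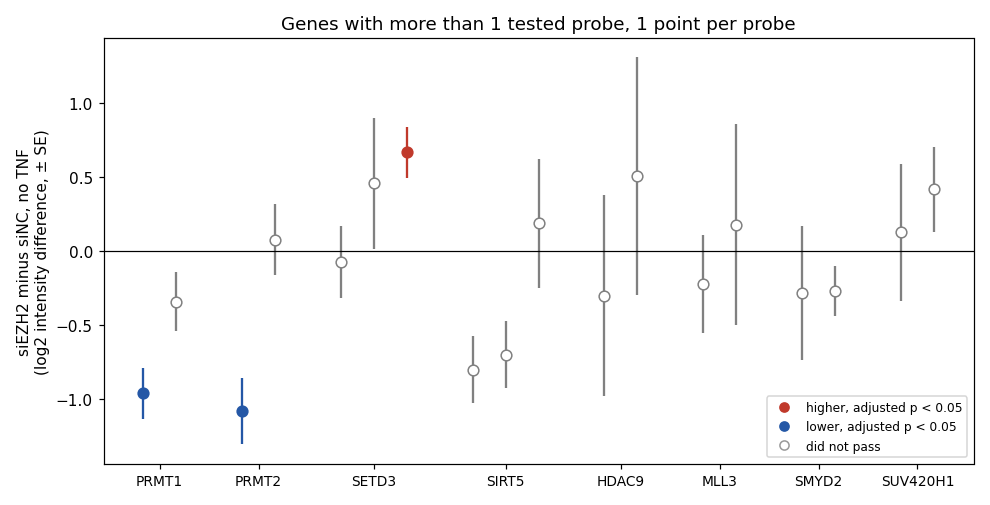
Log2 intensity difference of siEZH2 CTRL minus siNC CTRL, with its standard error, for each tested probe of the 8 genes that had more than 1. Filled points passed: for PRMT1, PRMT2 and SETD3 1 probe passed and the others did not, and PRMT2, SETD3, SIRT5, HDAC9 and MLL3 have probes on both sides of 0.

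HDAC9, a class II enzyme, had probes of opposite sign. Probe 6400500 read 7.27, 9.58 and 8.15 in siEZH2 CTRL and 6.83, 9.43 and 7.23 in siNC CTRL. Probe 5050634 read 6.42, 8.08 and 6.26 in siEZH2 CTRL and 6.57, 8.55 and 6.55 in siNC CTRL. On both probes the replicate 2 arrays of both groups stood above all other arrays, by more than the groups differed. The changes of 0.51 ± 0.803 and -0.30 ± 0.678 did not pass (limma adjusted p = 0.796 and 0.864), and with the block the adjusted p was 0.0403 and 0.085.

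Among 49 listed partners of these enzymes in complexes or on substrates, 43 were tested. With siEZH2, 1 was higher and 2 were lower (7 of the 74 enzyme probes and 13.5% of all probes passed), and the median was -0.10. SAP18, a small subunit of the Sin3 deacetylase complex, was 2.18-fold higher (1.12 ± 0.196, limma adjusted p = 0.013). SIN3A, the scaffold of that complex, was 1.67-fold lower (-0.74 ± 0.170, limma adjusted p = 0.0317), and NCOR1, the corepressor that activates HDAC3, 1.88-fold lower (-0.91 ± 0.201, limma adjusted p = 0.028). With the block 6 were higher and 9 lower, against 20.9% and 20.8% of all tested probes. UHRF1, which guides DNMT1 to replicating DNA, was among the 9 (-0.75 ± 0.269, limma adjusted p = 0.123, and 0.00349 with the block). A list of 16 proliferation genes moved with the siEZH2 arrays as well: 9 were lower and 0 higher, against 6.35% and 7.11% of all tested probes. With the block 15 were lower and 0 higher, against 20.8% and 20.9%. The median change of the 16 was -1.47. CDC20, CCNA2 and BUB1 were 4.43-fold, 3.45-fold and 3.57-fold lower (limma adjusted p = 0.00431, 0.0084 and 0.00621). None of the 16 passed with siRelA, siRelB or TNF. Their part in the changes of the enzymes was not tested.

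In the comparison of siRelA with siNC over both TNF states (2 arrays against 4), 1 of the 74 probes passed (1.35%), against 1.82% of all tested probes. It was lower, as were 1.24% of all. JARID1B, a demethylase of histone H3 at promoters, read 9.24 in siRelA CTRL and 9.18 in siRelA TNF, against 9.76, 9.78 and 9.84 in siNC CTRL and 9.91 in siNC TNF. Both siRelA arrays lay below every siNC array. It was 1.54-fold lower (-0.62 ± 0.122, limma adjusted p = 0.0307). With siEZH2 it read 9.81, 9.89 and 9.93 without TNF and 9.90 with TNF, a change of 0.08 ± 0.160 (limma adjusted p = 0.846). The siRelA call was lost when siRelA CTRL or siRelA TNF was left out (adjusted p = 0.348 and 0.42), or siNC CTRL replicate 1, siNC CTRL replicate 3 or siNC TNF (0.0606, 0.0854 and 0.173). It was lost too without siEZH2 CTRL replicate 3 or siEZH2 TNF (0.055 and 0.0726) and without either siRelB array (0.0772 each), which enter the estimate of the spread. In the authors' processed values its adjusted p was 0.295, and with their processing set as a term JARID1B passed. With a pair block over the 12 arrays the limma adjusted p was 0.00199. That block put the siRelA, siRelB and TNF arrays with the replicate 3 arrays, a grouping that the labels do not give.

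Over all 74 probes the median change with siRelA was -0.04, against 0.03 over all probes. PCAF changed by 0.50 (9.84 and 9.79 in siRelA, 9.22 to 9.46 in siNC; limma adjusted p = 0.23). The PRMT2 probe 7560072 changed by 0.69 (limma adjusted p = 0.177) and DOT1L, a methyltransferase of the histone H3 globular domain, by -0.54 (limma adjusted p = 0.184). None of these passed. The HDAC9 probe 6400500 had the largest change, -1.10 (limma adjusted p = 0.676), on the probe whose replicate 2 arrays stood apart.

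With siRelB no probe passed in limma (0 of 74, against 0.987% of all tested probes), and 4 had an unadjusted p under 0.05, against 9.94% of all. These siRelB values share the siNC arrays with the siRelA values. JARID1B read 9.28 in siRelB CTRL and 9.25 in siRelB TNF, below every siNC array. The change was -0.57 ± 0.122, 1.48-fold (limma adjusted p = 0.0668). It passed with a pair block over the 12 arrays (adjusted p = 0.00395), without the siNC CTRL replicate 2 array (0.038) and without both replicate 2 arrays (0.00675). In all it passed in 8 of 22 alternatives, with an adjusted p of 0.038 to 0.785 when single arrays were left out, highest without siRelB CTRL.

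The SETD3 probe 990437 read 10.20 in siRelB CTRL and 10.29 in siRelB TNF, against 11.15, 11.80 and 11.06 in siNC CTRL and 11.20 in siNC TNF. The siRelB arrays were the lowest of all 12, the others lying between 10.95 and 11.80. The change was -1.03 ± 0.210, 2.04-fold (limma adjusted p = 0.0548). It passed with the pair block (-0.90, adjusted p = 0.0025) and when both replicate 2 arrays were dropped (-0.89, limma adjusted p = 0.00143). So it did without siNC CTRL replicate 2 or siEZH2 CTRL replicate 2 alone (0.0157 and 0.0452). In all it passed in 11 of 22 alternatives, and leaving out single arrays gave an adjusted p of 0.0157 to 0.882, highest without siRelB CTRL. The SETD3 probe 2570035 changed by -0.65 (limma adjusted p = 0.683) and the probe 20564 by -0.11 (limma adjusted p = 0.899). DOT1L changed by -0.54 (limma adjusted p = 0.239) and the PRMT2 probe 7560072 by 0.63 (limma adjusted p = 0.291).

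**Figure D5:**
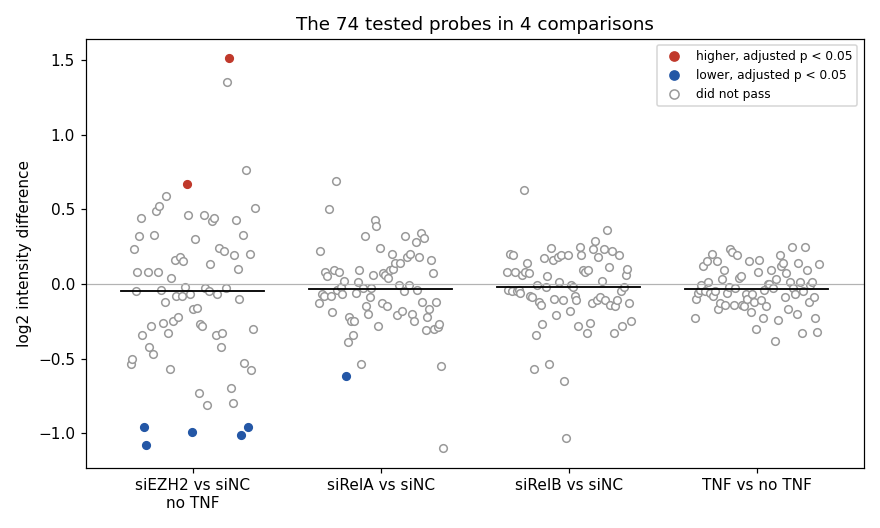
Log2 intensity difference of the 74 tested probes in the siEZH2, siRelA, siRelB and TNF comparisons, with a line at each median. The values spread from -1.08 to 1.51 with siEZH2 and from -0.38 to 0.25 with TNF, and the filled points are the 7 probes that passed with siEZH2 and the 1 that passed with siRelA.

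TNF for 4 h was compared with no TNF over the 4 siRNAs (4 arrays against 8). No probe of the 74 passed in limma and 0 had an unadjusted p under 0.05; of all 13884 probes 0 passed (0%) and 234 (1.69%) had an unadjusted p under 0.05. The changes of the 74 probes ran from -0.38 to 0.25, with a median of -0.04. HDAC2 changed by 0.25, SIRT2 by 0.25, and SUV420H1 (probe 2030022) by -0.38 (limma adjusted p = 0.997 each). Within an siRNA the TNF array differed from its CTRL arrays by more than 2-fold for 0 of 74 probes with siEZH2, siRelA and siRelB, against 0.418%, 0.0216% and 0.158% of all tested probes, and for 1 of 74 with siNC, against 0.238%. That probe was the SUV420H1 probe 2030022, at 5.35 in siNC TNF and at 5.72, 7.34 and 6.06 in siNC CTRL. The high value is that of replicate 2, and the difference has no replicate check.

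The siEZH2 effect was also set against itself across TNF states. In limma no probe of the 74 passed the interaction of siEZH2 with TNF and 0 had an unadjusted p under 0.05. Over all tested probes 0 passed (0%) and 25 (0.18%) had an unadjusted p under 0.05. On the single TNF arrays 6 of 74 probes differed by more than 2-fold between siEZH2 and siNC (8.11%), against 11.8% of all tested probes, with no replicate check. Of these 4 were higher, against 6.09% of all, and 2 lower, against 5.7%. The values ran from -1.53 for SETD4 to 1.73 for SIRT2. SETD4 was not detected on the siEZH2 TNF array.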

How the data were processed

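Total RNA was read on 1-colour bead arrays, 1 per sample. The authors deposited average signal intensity per probe on a linear scale, not normalized, with a detection score and a number of beads, from BeadStudio 3.2.7 per the file headers. The authors' processed log2 values, with column medians from -0.116 to 0.214, served as an alternative. Set against 4374 bright probes, they were log2 signals less each array's 75th percentile and less a probe centre, computed separately for replicates 1 and 2 of siEZH2 CTRL and siNC CTRL (first set, 4 arrays) and for the other 8 arrays (second set), and their direction is that of signal. The sources used here name no tool for it. No per-array value from 72 further columns was used.

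Signals were corrected with limma 3.58.1 (R 4.3.3; normal-exponential, 1 minus the score as detection p, offset 16), quantile normalized over 12 arrays and log2 transformed. Probes with detection p under 0.05 on at least 3 arrays were tested with lmFit and eBayes, and p-values were adjusted (Benjamini-Hochberg, 0.05) over all 13884 of them. siEZH2 against siNC and the interaction came from a mean per group. The siRelA, siRelB and TNF comparisons came from an additive fit over 12 arrays, which takes a lone array to vary like the rest. The blocked fit used the 6 siEZH2 CTRL and siNC CTRL arrays, and the pairing comes from the correlations in the text. The pair block over 12 arrays assigned all arrays of the other groups to replicate 3. The labels do not give this assignment. Left-out arrays kept the normalization of all 12. The script was tested on simulated data. Named were probes past the threshold, a set list of members, the largest change per role, genes whose probes differed, and partners past the threshold. The members and lists were chosen with earlier results of these data known. Of the 77 names, 55 were current, 19 matched a synonym, 2 (MLL2 and MLL4) were ambiguous and 1 (JARID1A) did not match the gene table.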

Additional observations from a re-analysis of the deposited data

How the results depend on the processing

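The counts of enzyme probes that passed moved with the processing, and none of the 7 probes that passed with siEZH2 nor JARID1B with siRelA changed direction under any alternative run. The HDAC9 probe 6400500, which passed with the block, changed by -0.12 without siEZH2 CTRL replicate 2 (limma adjusted p = 0.944). Shares of all tested probes at the same setting stand beside the counts. With siEZH2 the count was 7. It was 4 with 75th percentile scaling (5.41%, against 12.2% of all) and 2 with the authors' processed values (2.7%, against 6.51%). With those values and their processing set as a term it was 4 (5.41%, against 11.4%). It was 14 without both replicate 2 arrays (18.9%, against 28.6%) and 18 in an additive fit over 12 arrays (24.3%, against 31.2%). The second processing set gave 24 (32.4%, against 42.4%). The first gave 0, as of all probes (limma, 2 arrays against 2, with 5 at an unadjusted p under 0.05). The replicate block gave 29 (39.2%, against 41.7%), and leaving out 1 siEZH2 CTRL or siNC CTRL array at a time gave 1 to 7. Leaving out an array of another group could not change this count. The count was 1 (1.35%) without siNC CTRL replicate 1, siNC CTRL replicate 3 or siEZH2 CTRL replicate 3, against 5.45%, 3.75% and 4.26% of all. It was 2 without siEZH2 CTRL replicate 1 (2.7%, against 4.88%). SIRT4 passed in every alternative but the first processing set alone (limma adjusted p = 0.197).

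With siRelA the count was 1. It was 0 with the authors' values, against 0.699% of all (4 at an unadjusted p under 0.05), and 2 with their set as a term (2.7%, against 2.63%). It was 5 without both replicate 2 arrays (6.76%, against 11.3%) and 13 in the second set (17.6%, against 16.3%). The pair block, an alternative chosen after seeing the data, gave 12 (16.2%, against 13.9%). Leaving out any single siNC or siEZH2 array gave 0 to 1. With siRelB the count was 0. It was 2 without background correction (2.7%, against 1.25% of all) and 1 with 75th percentile scaling (1.35%, against 1.01%). No detection filter gave 1 (0.962%, against 0.771%), and probes detected on all arrays gave 2 (3.39%, against 1.35%). It was 1 with the authors' values (1.35%, against 0.295%), 2 with their set as a term (2.7%, against 1.72%) and 1 with 1 probe per gene (1.56%, against 1.18%). It was 3 without both replicate 2 arrays (4.05%, against 9.56%), 7 in the second set (9.46%, against 14.3%) and 5 with the pair block (6.76%, against 11.7%). Leaving out any single siNC or siEZH2 array gave 0 to 2. These were 2 without siNC CTRL replicate 2 (2.7%, against 2.23%) and 1 without siEZH2 CTRL replicate 2 (1.35%, against 1.52%). The cause of these moves was not tested. The TNF and interaction counts stayed at 0 in limma under all alternatives, with at most 4 and 1 probes at an unadjusted p under 0.05. Low signal over background limits the dim probes, 15 of which were not detected on every array.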
